A study of Drosophila melanogaster with 8 samples.

Results

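The long noncoding RNA (lncRNA) genes described here are those whose symbol carries the lncRNA prefix and whose level averaged at least 3 CPM (reads of a gene scaled to a common number of gene reads per library) over 8 RNA-seq libraries of Drosophila wing discs, leaving out the dosage compensation RNAs roX1 and roX2. Of 17559 gene IDs, 1795 carried the prefix with the roX genes left out, and 46 of these reached the threshold. They were chosen by this mean level over all 8 libraries, so their abundance is a description and was not tested. Just inside the threshold were CR45018 and CR45973, each at 3.22 CPM, and just outside were CR44677 at 2.97 and CR44955 at 2.76 CPM. Of the 1749 genes below it, 56 averaged between 1 and 3 CPM, and 590 of the 1795 had no read in any library.

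Whole wing imaginal discs, the larval epithelial sacs that form the wing and thorax, were dissected from wandering larvae kept at 29 °C, about 5 days after egg lay. Control discs came from the driver line 1151 crossed to w1118 (wt, 4 libraries), and the other discs were 1151>AntpCRISPR (CRISPR, 4 libraries), where CRISPR aimed at the Hox gene Antp was driven by the same line. Values below are listed in the order of the library numbers, wt 1 to wt 4 and then CRISPR 1 to CRISPR 4. The series addresses what Antp regulates in the adult muscle precursors, which lie on the disc epithelium, and every library holds precursors and epithelium together. Per the labels, the submitters used wt 2, wt 3, CRISPR 1 and CRISPR 2 in their own analysis and left out wt 1, wt 4, CRISPR 3 and CRISPR 4. The driver is carried by all 8 libraries. No CRISPR transgene is present in the control cross, so an effect of Antp and a difference in genetic background cannot be told apart. Whether the libraries of a genotype came from different animals or pools is not in the labels. The p-values below therefore reflect the spread between these libraries, part of which may be technical.

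An lncRNA is a transcript that is not known to be translated into a protein. Some act in the nucleus as scaffolds for RNA-binding proteins, some act where they are transcribed on neighbouring genes, and some are primary transcripts from which the enzymes Drosha and Dicer cut microRNAs (miRNAs), small RNAs that repress messenger RNAs. As a class they are known for low levels and for expression limited to certain tissues and times. The prefix lncRNA: is left out of gene names below.

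The libraries held between 35076546 gene reads (CRISPR 1) and 47980221 gene reads (wt 2). The 46 lncRNA genes took from 0.291% of these reads in wt 1 to 0.481% in CRISPR 3, and 95.2% of all lncRNA reads outside roX1 and roX2. With 1 exception (cherub, 2 reads in wt 1), each had at least 10 reads in every library. The wing disc marker nub lay between 285 and 362 CPM and the muscle precursor marker twi between 17.6 and 25.7 CPM, so the labelled tissue was present in every library. Antp itself read 195, 137, 140 and 121 CPM across the controls and 211, 166, 145 and 148 CPM across the CRISPR libraries, with the groups overlapping. CRISPR can disrupt a gene without lowering its RNA, so this level is no check of the labels. Other features of the libraries touch the results. Larval gut enzyme transcripts, 19 genes in the list, had a summed level of 2145 CPM for wt 2, 2164 CPM for wt 3 and 1200 CPM for CRISPR 3, and of 0.460 to 9.96 CPM in the other 5 libraries, where 5 to 11 of the 19 had no read. The ecdysone-induced nuclear receptor gene Hr4, used here as a stage marker, stood at 2.52, 39.2, 39.1 and 133 CPM in wt 1 to wt 4 and at 12.4, 12.4, 174 and 142 CPM in the 4 CRISPR libraries. Hr4 is 1 of 26 entries of a stage and ecdysone list, of which 22 matched. The list summed to 2854, 4288, 4255 and 7099 CPM in the wt libraries and 3651, 3231, 7863 and 7634 CPM in the CRISPR libraries. Not all its genes shared this order. The receptor gene EcR, also listed, was lowest in wt 4, CRISPR 3 and CRISPR 4. EcR stood at 174, 164 and 168 CPM there and at 211 to 327 CPM elsewhere. The most alike pair was wt 2 and wt 3, with a chi-square per degree of freedom of 10.6 against 42.3 for the next pair, wt 4 and CRISPR 4. That is still above sampling noise, which shows only that they are not the same counted reads. They were kept as 2 libraries, but whether they are separate samples is not in the labels.

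All 46 genes were found in the annotation (release 6 of the genome, dm6 coordinates). They lie on 2L (7), 2R (7), 3L (13), 3R (8) and X (11). Exons were merged over the transcripts of a gene. They cover from 214 to 21710 bp with a median of 1258.5 bp, against a median of 605 bp for the other lncRNA genes. In 26 of the 46 the merged exons form a single stretch, so an intron of some transcripts may be hidden. Exons of 11 overlap an exon of another gene, 8 of them on the same strand and 3 on the other strand, and 8 lie inside an intron of a coding gene. The strand setting of the counting is not given in the sources used here, and a search for near-identical copies was not run, so the counts of overlapping or copied genes are uncertain. Levels below are CPM scaled by TMM factors, which correct library sizes for composition. A level of 3 reads, the floor used here, corresponds to 0.0602 CPM in wt 2 to 0.0937 CPM in CRISPR 1, and covers counting error only.

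Reads of the class were concentrated in a pair of genes. CR40469 and CR42862 together held 73.2% of the reads of the 46. Hsromega and CR42549 also averaged above 100 CPM, 21 genes averaged between 10 and 100 CPM, and 21 averaged below 10 CPM. Without CR40469 and CR42862, the other 44 took from 0.0686% of gene reads in wt 1 to 0.145% in CRISPR 4.

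**Figure D1:**
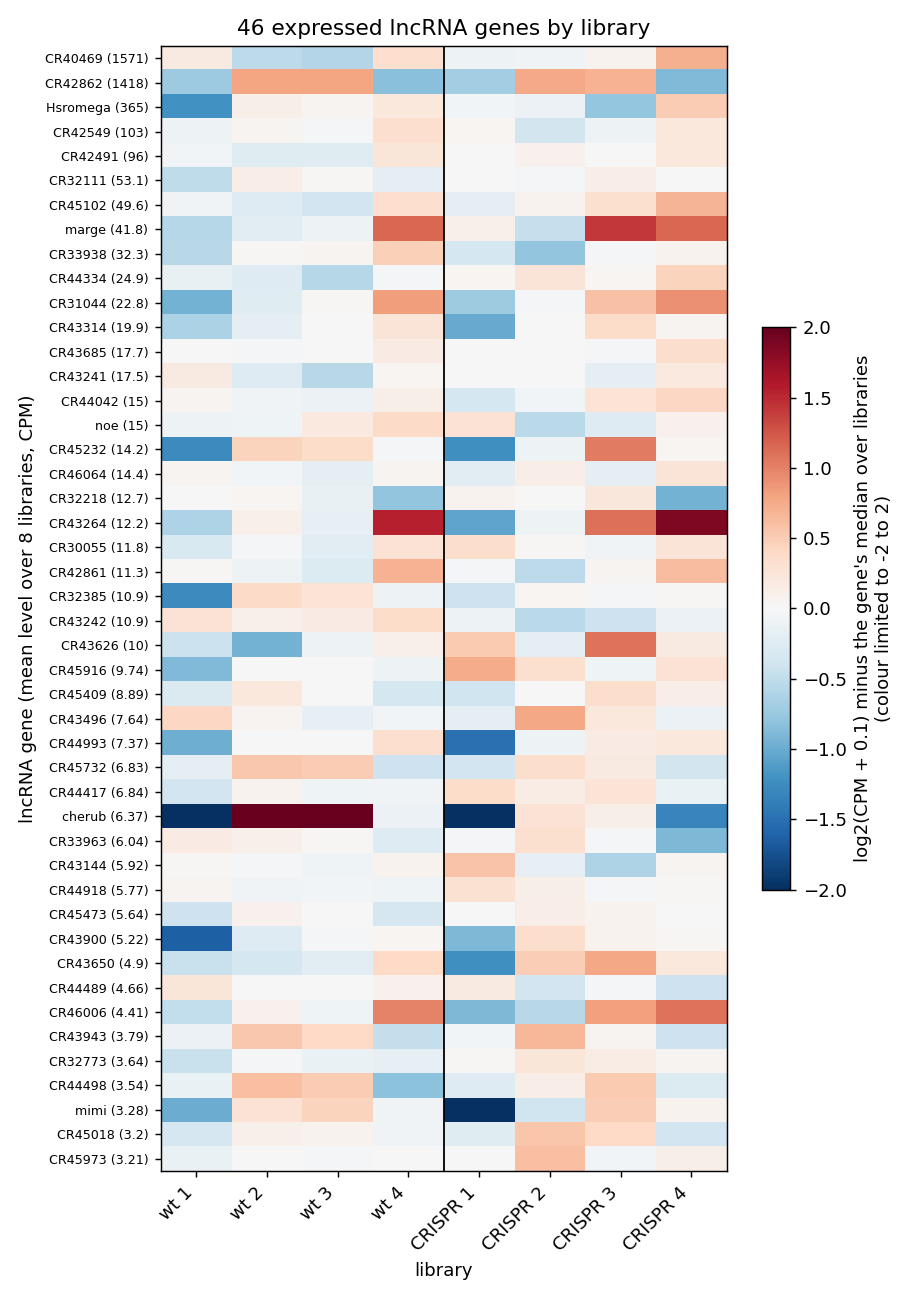
Level of each of the 46 lncRNA genes in each library, as log2(CPM + 0.1) minus the gene's median over the 8 libraries, with the colour limited to 2 in either direction. Rows are ordered by the mean level, given in CPM after each name, and the vertical line separates wt from CRISPR. Most rows change colour between libraries of a genotype, as cherub does between wt 2 or wt 3 (22.6 and 22.7 CPM) and wt 1 (0.0499 CPM).

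The most abundant lncRNA gene was CR40469 (X 122493 to 122706, plus strand), a single exon of 214 bp with no annotated overlap. Its level was 1714, 1050, 1000 and 1895 CPM in wt 1 to wt 4, and 1407, 1434, 1588 and 2477 CPM in the 4 CRISPR libraries. The groups overlapped, with wt 2 and wt 3 lowest and CRISPR 4 highest. Per kilobase of exon it also ranked first of the 46, at 7339 CPM per kb.

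CR42862 (3L 224106 to 230964, plus strand, 5485 bp of exon) lay in 2 ranges that genotype did not separate. In wt 2, wt 3, CRISPR 2 and CRISPR 3 it stood at 2160, 2160, 2114 and 2012 CPM. In wt 1, wt 4, CRISPR 1 and CRISPR 4 it stood at 756, 700, 771 and 675 CPM, so no library lay between 771 and 2012 CPM. Its exons share 246 bp with CG33229 on the same strand, and CG33229 itself ran only from 77.8 to 106 CPM. The coding genes within 1000 bp, CG34454 and CG42846, stayed at or below 0.683 CPM. The share of reads on no annotated feature was also highest in the same 4 libraries, at 1.70% to 1.91% against 0.955% to 1.49% in the rest; the part of such reads in this result was not tested.

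The same order of libraries, with wt 2, wt 3, CRISPR 2 and CRISPR 3 as the 4 highest, was found for 6 of the 46 lncRNA genes (13.0%) against 2.60% of the 7124 genes with a mean of at least 3 CPM. This order was looked for after the values of CR42862 had been seen. Beside CR42862 and cherub they were CR45732, CR43943, CR44498 and CR45018. CR45732, next to CG33062, stood at 5.71, 9.48, 9.25 and 4.81 CPM in wt 1 to wt 4 and at 4.90, 8.26, 7.30 and 4.97 CPM in the 4 CRISPR libraries. Here too the pairs of libraries 1 and 4 of either genotype were low and the pairs 2 and 3 high.

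Hsromega (3R 21296127 to 21317836, plus strand), the heat shock RNA omega gene, makes nuclear transcripts that organise omega speckles, the bodies in which RNA-binding proteins are held after stress. Its annotated exons, merged over 7 transcripts, form a single stretch of 21710 bp that contains mir-4951. Hsromega ranked 3 of the 46 by CPM but 12 per kilobase (16.8 CPM per kb). The levels were 166, 416, 400 and 444 CPM in wt 1 to wt 4 and 369, 353, 224 and 546 CPM in the 4 CRISPR libraries. The 2 lowest libraries were wt 1 and CRISPR 3, and the groups overlapped. Larvae were kept at an elevated temperature, and the heat shock gene Hsp70Ba stood at 7.13, 5.26, 5.20 and 3.26 CPM in the control libraries and at 133, 54.2, 9.23 and 74.6 CPM in the CRISPR libraries. Other heat shock genes overlapped between the genotypes. Hsp70Aa ran from 51.3 to 84.0 CPM in the controls and from 15.5 to 101 CPM in the CRISPR libraries, and the chaperone gene Hsp83 from 3144 to 8713 CPM and from 3286 to 10504 CPM. The small heat shock gene Hsp26 ran from 859 CPM in CRISPR 3 to 7689 CPM in CRISPR 1. CRISPR 3 was thus low for both Hsromega and Hsp26, while wt 1 was low for Hsromega and stood at 3996 CPM for Hsp26.

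CR42549, CR42491 and CR32111 were more even across libraries. CR42549 (3R, 97 bp of exon shared with the ubiquitin ligase gene mura) ran from 79.4 CPM in CRISPR 2 to 128 CPM in wt 4. CR42491 (X) contains snoRNA:Psi18S-531, a guide for pseudouridine in ribosomal RNA, and shares 377 of its 747 bp of exon with the ribosomal protein gene RpL22. It ran from 80.4 CPM in wt 3 to 113 CPM in wt 4. CR32111 (3L, 5214 bp of exon) ran from 38.6 CPM in wt 1 to 59.9 CPM in wt 2. Across all 46, the most even were CR43685 and CR44918, whose highest library was 1.32 times the lowest in each case.

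**Figure D2:**
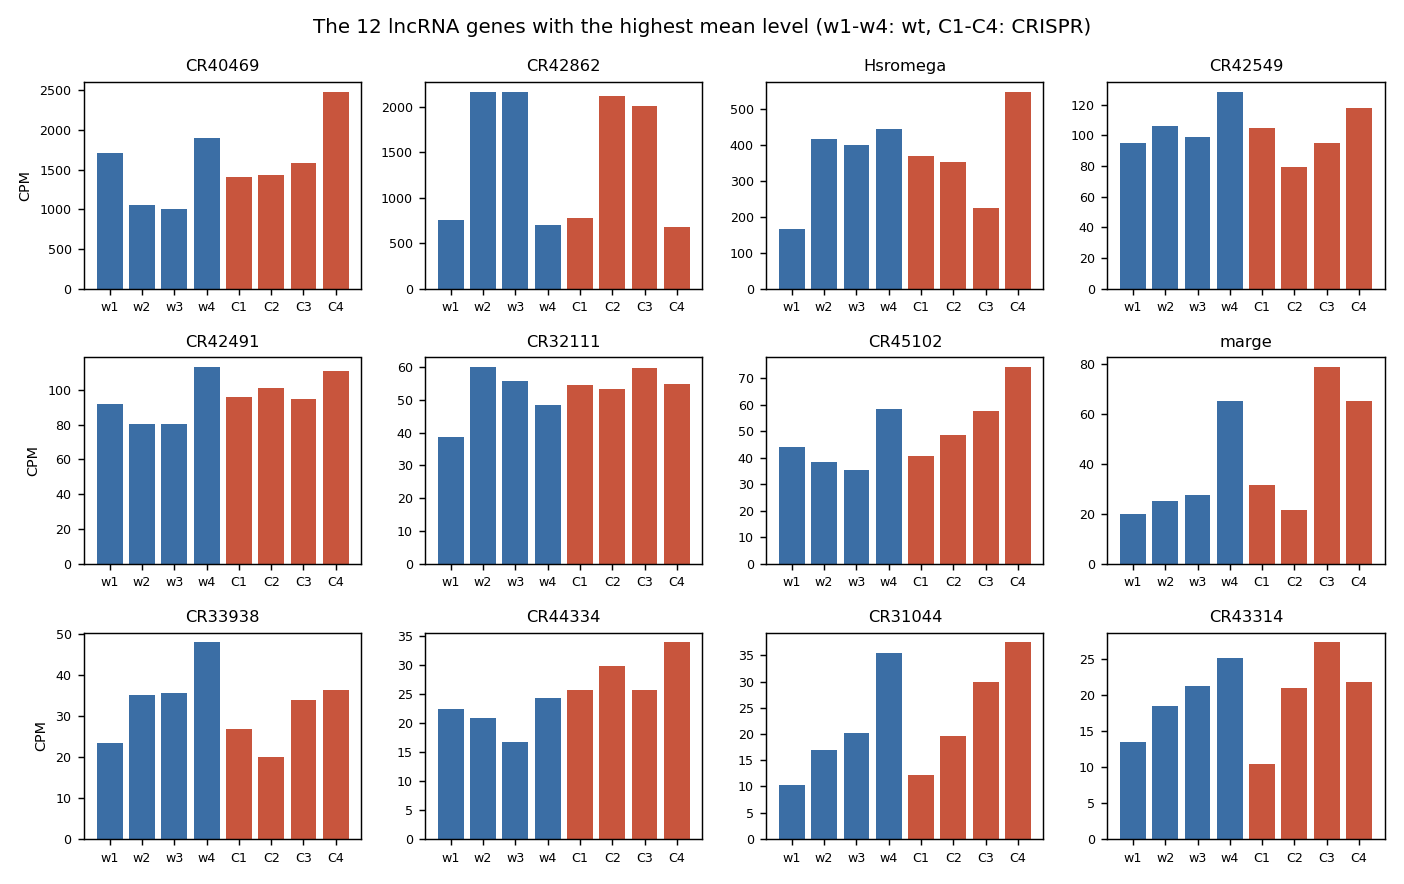
Levels in CPM (TMM-scaled, each vertical axis starting at 0) of the 12 lncRNA genes with the highest mean, 1 bar per library, wt in blue and CRISPR in red. CR42862 is high in wt 2, wt 3, CRISPR 2 and CRISPR 3 and low in the other 4 libraries, while CR42549 and CR42491 are nearly level.

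The lncRNA genes varied more between libraries than most genes did. The highest library was a median of 2.26 times the lowest over the 46 genes and 1.51 times over the 7124 genes with a mean of at least 3 CPM. More than 2-fold was spanned by 26 of the 46 (56.5%) and by 19.5% of the 7124. Their levels were also lower, with a median of 10.9 against 49.7 CPM, and its part in this result was not tested. More than 5-fold was spanned by 4 lncRNA genes, cherub, mimi, CR43264 and CR45232, and by 3.71% of the 7124.

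The widest range belonged to cherub (3R 11247631 to 11256123, minus strand, 8398 bp of exon), an RNA known from the larval brain, where dividing neural stem cells pass it on unequally to their daughters. Its level was 0.0499, 22.6, 22.7 and 1.35 CPM in wt 1 to wt 4 and 0.250, 1.83, 1.61 and 0.529 CPM in the 4 CRISPR libraries. So wt 2 and wt 3 stood far above the other 6 libraries, wt 1 and wt 4 included. With 1037 reads in wt 3 and 2 in wt 1, the ratio of these levels was 456 (95% exact interval 126 to 3768, counting error only). With wt 1 set to 3 reads, as in the library ratios of the other genes, it was 304. The same 2 libraries held the most of several transcripts from other tissues. The synaptic gene brp was at 2.01 and 2.26 CPM there and at 0.344 CPM or less elsewhere, and nSyb was at 2.05 and 1.93 CPM against 0.508 CPM or less. Over the whole neuron list (12 of 13 entries matched) the summed level ran only from 146 to 202 CPM, with elav at 58.2 to 75.6 CPM in every library. The mean log2 level of the list was 2.14 and 2.07 in wt 2 and wt 3 and 0.17 to 0.67 elsewhere, with up to 2 of the 12 at no reads. The neural stem cell genes dpn (8.35 to 17.0 CPM) and ase (0.848 to 3.50 CPM) had their highest libraries in CRISPR 1 and wt 4. Another, wor, was highest in wt 3 (0.701 CPM), followed by wt 4 (0.576 CPM) and wt 2 (0.522 CPM). It ran from 0.274 to 0.437 CPM elsewhere and had at most 32 reads in a library. Fat body transcripts (10 of 12 entries matched) summed to 523 and 534 CPM in wt 2 and wt 3 and to 21.4 to 73.8 CPM elsewhere. Gut transcripts were also high in CRISPR 3, where cherub was at 1.61 CPM. The part of these tissues in the level of cherub was not tested. In whole discs, fewer cells of a type and less RNA per cell cannot be told apart.

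mimi (3R 23983503 to 23985065, plus strand) spanned 10.8-fold, at 1.75, 4.38, 4.87 and 3.39 CPM in wt 1 to wt 4 and 0.468, 2.67, 5.04 and 3.73 CPM in the 4 CRISPR libraries. The lowest value rests on 15 reads, in CRISPR 1. CR45232 (2R 16297449 to 16306695, minus strand, between Atg9 and Nox) stood at 5.49, 18.2, 17.3 and 13.1 CPM in the control libraries and 5.65, 12.5, 27.7 and 13.7 CPM in the CRISPR libraries. For both genes wt 1 and CRISPR 1 were the 2 lowest libraries.

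Libraries wt 1 and CRISPR 1 were the 2 lowest for 10 of the 46 lncRNA genes (21.7%) and for 5.36% of the 7124 genes. The 10 were cherub, mimi, CR45232, CR43264, CR31044, CR43314, CR43650, CR32385, CR44993 and CR43900. The lowest library of all was wt 1 or CRISPR 1 for 24 lncRNA genes (52.2%) and for 25.7% of the 7124. These libraries also had the lowest share of reads on no feature (1.21% and 0.955%) and wt 1 had the lowest Hr4; their part in this result was not tested. CR43900 (2R, 199 bp of its 737 bp of exon shared with the calmodulin gene Cam) is an example, with wt 1 at 1.85 CPM and CRISPR 1 at 3.15 CPM against 4.96 to 7.60 CPM elsewhere. Cam was highest in wt 1, at 1451 CPM. Another is CR44993, inside an intron of Df31 on the opposite strand, at 4.07 and 2.81 CPM in these libraries and 7.47 to 10.2 CPM in the other 6.

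Long lncRNA genes were low in wt 1 and CRISPR 1. The 13 with at least 3000 bp of exon had a median log2 difference from their median library of -0.64 in wt 1 and -0.69 in CRISPR 1, and 0.40 in CRISPR 3. The 14 under 1000 bp had -0.08 in wt 1 and -0.03 in CRISPR 1. Across the 46 genes, Spearman's rho between exon length and this difference was -0.45 in wt 1 and -0.22 in CRISPR 1, where over 6954 genes with a known length it was 0.23 and 0.26. In wt 4 and CRISPR 4 rho was -0.50 and -0.60 over the 6954 genes and -0.18 and -0.09 over the 46. Genes of a library share its depth and RNA, so these correlations are descriptions without a p-value.

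**Figure D3:**
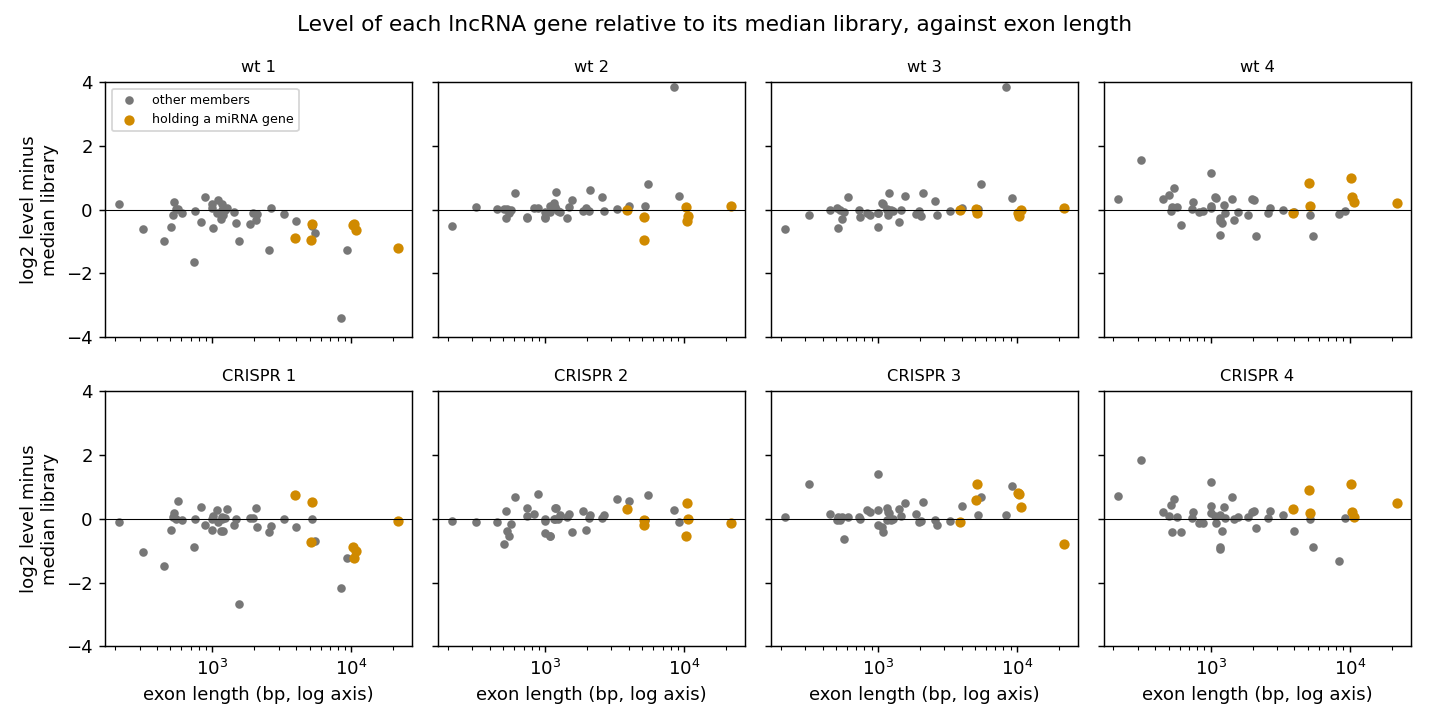
Level of each of the 46 lncRNA genes in each library, as the log2 difference from its median library, against exon length in bp on a log axis, with genes that contain a miRNA gene in orange. In wt 1 most genes above 3000 bp lie below 0 (median -0.64 over 13 genes), while in CRISPR 3 most lie above 0 (median 0.40).

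Several lncRNA genes were highest in wt 4, CRISPR 3 and CRISPR 4, the 3 libraries with the highest Hr4. For 9 of the 46 (19.6%) these were the 3 highest libraries, against 13.8% of the 7124 genes, and 1 lncRNA gene (CR33963) had them as its 3 lowest, against 12.6%. The clearest was marge (3L 14976626 to 14977631, minus strand, 1006 bp of exon). It was at 19.9, 25.3, 27.4 and 65.1 CPM in wt 1 to wt 4 and 31.5, 21.4, 78.7 and 65.2 CPM in the 4 CRISPR libraries. The 3 high libraries stood at 65.1 CPM or more and the other 5 at 31.5 CPM or less. Its neighbour Ocho, a Bearded family gene that limits Notch signalling, had no such order and ran from 12.9 CPM in CRISPR 4 to 22.8 CPM in CRISPR 1.

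CR43264 (X 5831898 to 5832215, minus strand, 318 bp) followed the same order, at 4.96, 8.17, 6.77 and 22.7 CPM in the control libraries and 3.62, 7.14, 16.5 and 28.1 CPM in the CRISPR libraries. It lies in an intron of CG15765 on the opposite strand. CG15765 did not share this order over all 8 libraries, since every wt library lay below every CRISPR library. Within the genotypes, wt 4 was the highest control library of CG15765, and CRISPR 3 and CRISPR 4 were its highest CRISPR libraries. It stood at 0.673, 1.43, 1.73 and 2.33 CPM in the control libraries and 3.31, 3.07, 6.44 and 6.74 CPM in the CRISPR libraries. CR45102, next to the Myc antagonist gene Mnt, also belonged here, at 58.4, 57.4 and 74.0 CPM in wt 4, CRISPR 3 and CRISPR 4 and 35.3 to 48.4 CPM in the other 5. Mnt had the same 3 highest libraries, at 121, 119 and 109 CPM, against 74.9 to 97.8 CPM in the other 5. The remaining 6 genes of this order were CR31044, CR43314, CR44042, CR42861, CR44993 and CR46006. Below the threshold, let7C, the ecdysone-timed primary transcript of let-7, mir-100 and mir-125, was at 0, 0.582, 0.351 and 1.99 CPM in wt 1 to wt 4 and 0.312, 0.0762, 1.38 and 2.44 CPM in the 4 CRISPR libraries. Its 3 highest libraries were likewise wt 4, CRISPR 3 and CRISPR 4. Stage was not labelled by library, and its part in these levels was not tested.

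**Figure D4:**
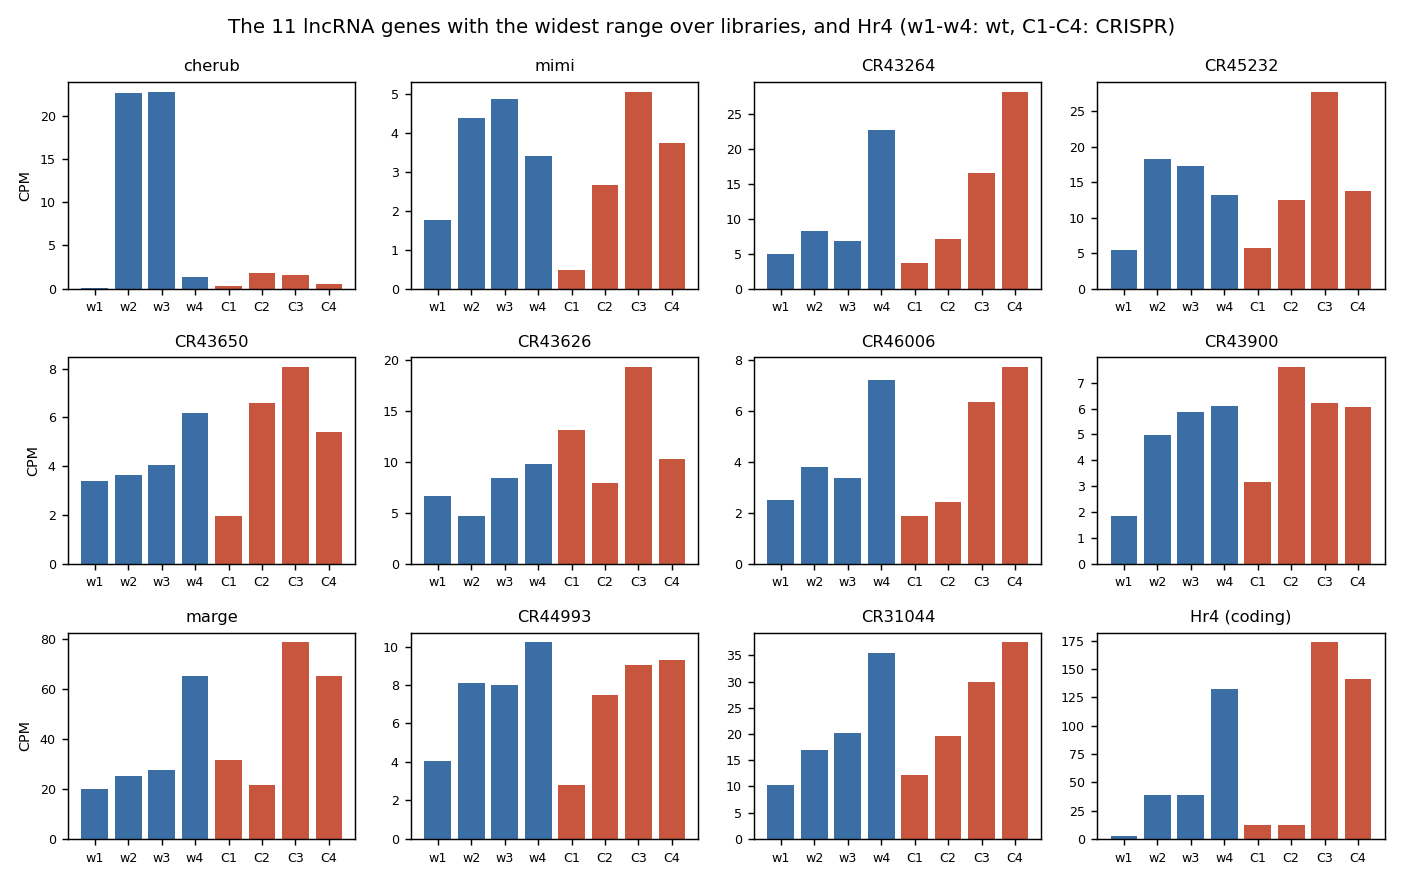
Levels in CPM (TMM-scaled, each vertical axis starting at 0) of the 11 lncRNA genes with the highest ratio of highest to lowest library apart from Hsromega, and of the coding gene Hr4, 1 bar per library, wt in blue and CRISPR in red. The cherub bars stand high only in wt 2 and wt 3, and marge and CR43264 have their 3 highest bars in the same libraries as Hr4.

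Of the 46 lncRNA genes, 7 contain miRNA genes, 8 in all, and their exons are long (3898 to 21710 bp). Beside Hsromega they were CR31044 with mir-279 and mir-996, CR43314 with mir-bft, CR43626 with mir-282, CR45916 with mir-9a, CR43650 with mir-8 and CR46006 with mir-276a. Reads on these genes come from the host transcript and do not measure the mature miRNA. CR31044 (3R 29214562 to 29219667) hosts mir-279, known for restricting the formation of carbon dioxide-sensing neurons. Its levels spanned 3.63-fold, at 10.3, 16.9, 20.2 and 35.5 CPM in wt 1 to wt 4 and 12.1, 19.6, 29.9 and 37.4 CPM in the 4 CRISPR libraries. Within each number CRISPR was the higher library, but the numbers differed from each other by far more than the genotypes did.

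CR43314 (2L 11952200 to 11971094) was at 13.5, 18.5, 21.2 and 25.2 CPM in the control libraries and 10.5, 21.0, 27.3 and 21.8 CPM in the CRISPR libraries. CR43650 (2R 16829095 to 16839494), the host of mir-8, a miRNA that promotes larval growth, was at 3.39, 3.65, 4.03 and 6.18 CPM in the control libraries and 1.94, 6.58, 8.05 and 5.40 CPM in the CRISPR libraries. Per kilobase CR43650 (0.471 CPM per kb) and CR46006 (0.431 CPM per kb) were the 2 lowest of the 46. CR46006 (3L 10323501 to 10367450) was at 2.52, 3.81, 3.35 and 7.22 CPM in the control libraries and 1.87, 2.41, 6.37 and 7.73 CPM in the CRISPR libraries. Both genotypes thus contained low and high libraries for each of these hosts.

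CR45916 (3L 19562636 to 19566533) hosts mir-9a, which in the wing disc keeps sensory organ precursors to their proper number. It was at 4.91, 9.14, 9.05 and 8.51 CPM in the control libraries and 15.2, 11.4, 8.57 and 11.2 CPM in the CRISPR libraries, with the groups overlapping through CRISPR 3. CR43626 (3L 3249340 to 3254504), the host of mir-282, was at 6.68, 4.64, 8.42 and 9.75 CPM in the control libraries and 13.1, 7.90, 19.3 and 10.3 CPM in the CRISPR libraries, where CRISPR was higher within each of the 4 numbers. Genes of the small RNA processing machinery, among them drosha, pasha and Dcr-1, were also examined. Of 17 entries 12 were matched and tested, and 0 passed the test in either genotype comparison (edgeR; 0 and 3 of the 12 at an unadjusted p under 0.05 with all 8 and with the used libraries), with a median log2 difference of 0.01 and 0.05.

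Of a list of 34 lncRNA names with a described role or in common use, 12 matched a gene ID. Hsromega, cherub and noe were above the threshold. noe (3L 17400272 to 17401348, in an intron of the transporter gene blot on the same strand) was at 13.7, 13.9, 16.9 and 19.3 CPM in the control libraries and 18.0, 10.1, 12.2 and 15.6 CPM in the CRISPR libraries, with the groups overlapping. The bithorax complex RNAs iab4 and iab8, from the Hox cluster of the abdomen, had no read in any library, and neither had CRG. bxd, from the same cluster, averaged 0.321 CPM, and flam, the piRNA source of the ovary, averaged 0.599 CPM. In no comparison did an lncRNA gene of this list pass the main edgeR test. In the used libraries cherub and Hsromega passed it without CRISPR 1 and without CRISPR 2, in the fits with a single CRISPR library. Of the 7 tested, 2 had an unadjusted p under 0.05 over all 8 libraries and 3 over the used libraries.

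The genotype comparison over all 8 libraries asked which lncRNA genes differ in discs whose muscle precursors were targeted for Antp. With edgeR's quasi-likelihood test at a Benjamini-Hochberg adjusted p under 0.05, 0 of the 46 were called, where 0.184% of the 9255 genes tested were called (17 genes; 0.0648% higher and 0.119% lower in CRISPR). At an unadjusted p under 0.05 there were 5 of the 46, against a background of 4.3%. DESeq2 called 1 of the 46 (CR43242) and 78 of the 9255 genes, and limma-voom called 0 and 12. The median log2 difference was 0.13 over the 46 and 0.02 over all genes tested, 31 were positive and 15 negative, and adjusted p-values ran from 0.523 to 0.9999. The standard errors had a median of 0.25 on the log2 scale, so small differences were not detectable with these libraries.

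CR43242 (2L 23069005 to 23070724, plus strand, next to the splicing factor gene Spf45) had the smallest p. It was at 13.4, 11.8, 12.3 and 14.1 CPM in the control libraries and 10.12, 7.47, 8.18 and 10.05 CPM in the CRISPR libraries. The control mean was 12.9 ± 1.05 CPM and the CRISPR mean 8.95 ± 1.34 CPM (SD, n = 4 each), the groups did not overlap, and CRISPR was lower within each of the 4 numbers. The log2 difference was -0.53 (SE 0.14, edgeR adjusted p = 0.523, unadjusted p = 0.00469). DESeq2 gave -0.54 with an adjusted p of 0.0324. With the replicate number as a block edgeR gave -0.54 and an adjusted p of 0.226. Its neighbour Spf45 stood at 59.9 to 93.0 CPM in wt and 61.6 to 89.8 CPM in CRISPR.

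CR44334 (3R 7312338 to 7312858, minus strand, no gene within 1000 bp) showed the opposite order. It was at 22.4, 20.8, 16.7 and 24.2 CPM in wt (mean 21.0 ± 3.19, SD, n = 4) and 25.7, 29.7, 25.7 and 33.8 CPM in CRISPR (28.7 ± 3.89, SD, n = 4). Every CRISPR library was above every wt library, and the log2 difference was 0.45 (SE 0.14, edgeR adjusted p = 0.808). CR32773 (X), a gene that spans 223710 bp with 1868 bp of exon, was the other gene with all CRISPR libraries higher, at 2.69 to 3.63 CPM in wt and 3.78 to 4.42 CPM in CRISPR, and its log2 difference was 0.32 (SE 0.18, adjusted p = 0.9999). Thus 2 of the 46 were higher in CRISPR without overlap, against 1.7% of all genes tested, and 1 was lower, against 1.18%. These shares, 4.35% and 2.17% of the 46, rest on 3 genes.

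The largest difference was that of cherub, with a control mean of 11.7 ± 12.7 CPM and a CRISPR mean of 1.06 ± 0.783 CPM (SD, n = 4 each), with a log2 difference of -3.46 (SE 1.35, edgeR adjusted p = 0.9999). It rests on wt 2 and wt 3, since wt 1 was the lowest of all 8 libraries. Without wt 2, wt 3 and CRISPR 3 the log2 difference was 0.31, and among the not-used libraries alone it was 0.60, so the direction turned. It was -1.76 by limma-voom, -2.02 with use status as a covariate and -2.63 with the replicate block. CR43626 (0.78, SE 0.31) and CR45916 (0.55, SE 0.24) were positive with unadjusted p-values of 0.0328 and 0.0479 (edgeR) and did not pass the adjustment. The 7 miRNA hosts were all positive in this comparison, from 0.04 to 0.78 with a median of 0.26. In the used libraries 3 of the 7 were positive and the median was -0.22, so the direction of the group depended on the libraries compared.

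**Figure D5:**
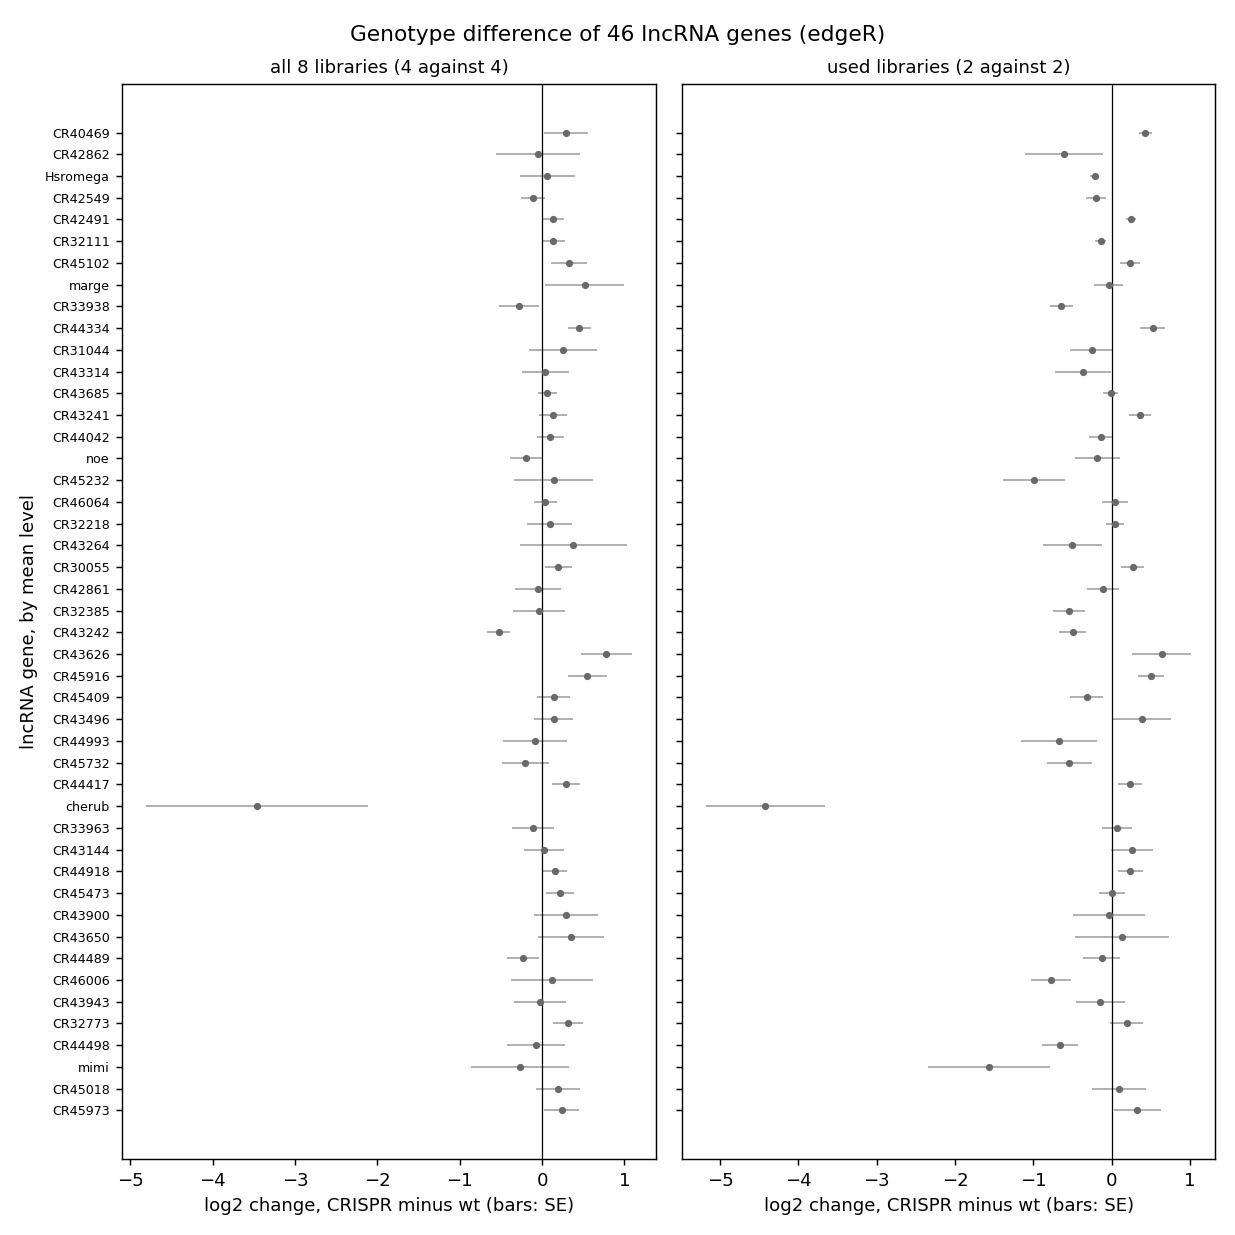
Log2 difference between genotypes (CRISPR minus wt, edgeR) for each of the 46 lncRNA genes, ordered by mean level, over all 8 libraries (left, 4 against 4) and over the used libraries (right, 2 against 2). Points are estimates and bars are standard errors. Except for cherub (-3.46 on the left and -4.42 on the right) and mimi on the right (-1.57), all points lie within 1 of zero, and none passed an adjusted p under 0.05.

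Among the 4 used libraries, the comparison the submitters' labels point to, edgeR again called 0 of the 46, where 2.72% of the 9711 genes tested were called (264 genes; 0.381% higher and 2.34% lower in CRISPR). At an unadjusted p under 0.05 there were 12 of the 46, against a background of 22.4%. The median log2 difference was -0.08 over the 46 and 0.00 over all genes tested, with 20 positive and 26 negative. DESeq2 called 3 of the 46 (CR40469, CR33938 and cherub) and 781 of the 9711 genes. Of the 46, limma-voom called cherub only (398 of the 9711 genes), and edgeR without the low-count filter called cherub only (400 of 14346 genes). With 2 libraries per group, 11 of the 46 lay higher in CRISPR without overlap (background 33%) and 13 lower (background 25.9%). Fits without CRISPR 1 or without CRISPR 2 leave a single CRISPR library, and the numbers they called are not read as results. Such fits take the spread from wt 2 and wt 3 alone and assume that the single CRISPR library varies like them. Fits without wt 2 or without wt 3 leave a single wt library, and their numbers are not read as results either.

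The smallest p among the used libraries was that of cherub, which was at 22.7 ± 0.0725 CPM in wt 2 and wt 3 and 1.04 ± 1.12 CPM in CRISPR 1 and CRISPR 2 (SD, n = 2 each), a log2 difference of -4.42 (SE 0.76, edgeR adjusted p = 0.0699, DESeq2 0.00505). The estimate was -6.55 without CRISPR 2 and -3.64 without CRISPR 1. CR40469 had a control mean of 1025 ± 35.0 CPM and a CRISPR mean of 1420 ± 19.0 CPM (SD, n = 2 each), a log2 difference of 0.43 (SE 0.08, edgeR adjusted p = 0.0855, DESeq2 1.45e-05). The not-used wt libraries, at 1714 and 1895 CPM, stood above both used CRISPR libraries. CR33938 (3R 6699560 to 6700164, minus strand) was at 23.4, 35.0, 35.5 and 47.8 CPM in wt 1 to wt 4 and 26.8, 19.8, 33.7 and 36.2 CPM in the 4 CRISPR libraries. Its used libraries did not overlap (log2 difference -0.64, SE 0.15, edgeR adjusted p = 0.103, DESeq2 0.00775), and all 8 did. CR42491 had a log2 difference of 0.25 (adjusted p = 0.139) and Hsromega one of -0.22 (adjusted p = 0.144), both by edgeR. For each of these 5 genes the groups overlapped once all 8 libraries were taken.

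Whether the genotype difference depended on use status was tested with an interaction term. edgeR called 0 of the 46, where 0% of 10094 genes were called, and 3 of the 46 had an unadjusted p under 0.05 against a background of 8.24%. DESeq2 and limma-voom also called 0 of the 46. Without wt 4 edgeR called 3 (marge, CR32385 and CR46006, among 276 genes).

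Below the threshold, 208 of the 1749 lncRNA genes had enough reads to be tested over all 8 libraries, and 2 neighbours on 2L were lower in CRISPR (0.962% of the 208, against 0.184% of all genes tested). They are named here after their values were seen. CR44186 (2L 136144 to 136701, plus strand) was at 1.52, 0.823, 1.07 and 0.509 CPM in wt and had no read in any CRISPR library, at least 52.8-fold lower taking 3 reads over the group as the floor (edgeR adjusted p = 0.0410). CR44185 (2L 135402 to 136128, plus strand) was at 1.40, 0.964, 0.680 and 0.576 CPM in wt and had 1 read in all CRISPR libraries together (edgeR adjusted p = 0.0227). Both lie in an intron of the mitochondrial complex I gene ND-15 on the same strand. Both separated the genotypes in every library, used and not used. With the used libraries 226 were tested and 3 were called (1.33%, against 2.72% of all genes tested), the same 2 and CR44493 (2L 10943272 to 10943622, in an intron of dpr2), which was at 1.43 and 1.64 CPM in wt 2 and wt 3 and at 0.0443 CPM or less in the other 6, wt 1 and wt 4 included (edgeR adjusted p = 0.0292).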

How the data were processed

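For each of the 8 libraries the authors deposited a table of unnormalized counts of reads per gene. The submitters' processing notes name the build dm6 and the tools STAR, DESeq2, FastQC and Trimmomatic 0.36. Per the labels' protocols, total RNA came from a Monarch kit and sequencing libraries from a ThruPLEX DNA-Seq kit. What counted the reads, with which strand setting and annotation, is not given in the sources used here. Of all reads in a table, 0.955% to 1.91% were on no feature, 3.07% to 3.44% were ambiguous and 2.22% to 4.40% had no unique place, and these stayed out of library sizes and tests.

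Symbols matched 17253 of 17559 IDs, and coordinates are from Ensembl release 115. The tests used edgeR 4.0.16 under R 4.3.3 (filterByExpr, minimum count 10, minimum total 15, then TMM factors of 0.898 in wt 1 to 1.05 in wt 3, two-sided quasi-likelihood test), with p-values adjusted over all genes tested. DESeq2 1.42.0 and limma 3.58.1 were alternatives, and Python 3.11.15 drew the figures. The fits were tested on simulated counts. Library ratios set any level at or under 3 reads to 3 reads.

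Same-numbered libraries deviated together from their group means (r = 0.452, 0.151, 0.444 and 0.741 for numbers 1 to 4, over 9255 genes; -0.528 to 0.445 between different numbers), so the number was used as a block in an alternative fit. Named genes are the 12 with the highest mean, the 12 with the widest library range, the 5 with the smallest p in each genotype comparison, those with a described role or a name, and those next to the threshold. Genes named for a shared order of libraries, for even levels or for a miRNA were added. The lncRNA genes, the lists and the tests were chosen with earlier results of these data known.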

Additional observations from a re-analysis of the deposited data

Results flagged for a closer look

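Among 92 groups of 4 libraries (the 46 lncRNA genes in each genotype), 6 held a library far from the other 3, and chance alone marks about 1 group in 20. CR40469 stood at 2477 CPM in CRISPR 4, against 1407 to 1588 CPM in the other CRISPR libraries. Hsromega stood at 165.8 CPM in wt 1, against 400 to 444 CPM in the other wt libraries. marge stood at 65.12 CPM in wt 4, against 19.9 to 27.4 CPM. CR43685 stood at 21.76 CPM in CRISPR 4, against 16.7 to 17.1 CPM, and CR32385 at 8.493 CPM in CRISPR 1, against 11.2 to 11.7 CPM. CR45916, the host of mir-9a, stood at 4.913 CPM in wt 1, against 8.51 to 9.14 CPM.

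For 4 of the 46 genes every used CRISPR library lay below every used wt library and every not-used CRISPR library lay above every not-used wt library. The share of all genes with both orders is not given here, so 4 of 46 has no background. In the used libraries alone, 25.9% of the 9711 genes tested lay lower in CRISPR without overlap. CR32111 had a log2 difference of -0.141 in the used and 0.397 in the not-used libraries, and the interaction term gave an edgeR adjusted p of 0.612 (0.0520 unadjusted). CR45232 had -0.994 and 1.15 (adjusted p = 0.547, 0.0258 unadjusted). CR32385 had -0.547 and 0.572 (adjusted p = 0.630, 0.0790 unadjusted). mimi had -1.57 and 0.768 (adjusted p = 0.612, 0.0523 unadjusted). None of the 4 differences passed the adjustment.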

How the results depend on the processing

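With all 8 libraries, 0 of the 46 lncRNA genes were called under every alternative except DESeq2 (1). Of all genes, DESeq2 called 78, the not-used libraries alone 8, use status as a covariate 7, and the sets without wt 4 and CRISPR 4 or without wt 2, wt 3 and CRISPR 3 (both chosen after seeing the data) 0 each. Leaving out each library in turn gave 0 lncRNA genes and 1 to 26 genes. The replicate block gave 0 lncRNA genes and 14 genes, and 0 and 0 for the interaction, and changed no call of an lncRNA gene. For cherub the log2 difference of -3.46 reversed to 0.60 in the not-used libraries alone and to 0.31 without wt 2, wt 3 and CRISPR 3. Among the fits of the used libraries, those that leave out a library keep a single library in a genotype. Their counts are therefore not read as differences between genotypes. Without CRISPR 1 or without CRISPR 2 the spread comes from wt 2 and wt 3 alone. With the used libraries, DESeq2 called 3 lncRNA genes and 781 genes, limma-voom 1 and 398, and no low-count filter 1 and 400. The spread over all 8 libraries gave 0 and 5, and leaving out each library 0 to 32 lncRNA genes and 39 to 5759 genes; the cause was not tested. For the interaction, DESeq2 called 154 genes, no low-count filter 67, and leaving out each library 0 to 276 genes and 0 to 3 lncRNA genes. No paired analysis was possible for the used libraries because the used wt and CRISPR libraries share only 1 number. The median library range stayed between 1.97-fold and 2.35-fold under all its alternatives. Of 210 alternatives for single genes, 192 kept direction and side of the threshold, 16 passed it and 2 reversed. Fits with a single library in a genotype are among the 210, and those without CRISPR 1 or without CRISPR 2 supply most of the 16. Depth limits cherub and mimi most, with as few as 2 and 15 reads in a library.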

Other observations

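Per kilobase of exon the 46 lncRNA genes had a median of 7.94 CPM per kb, against 21.1 CPM per kb over the 6866 coding genes with a mean of at least 3 CPM. Of the 46, CRISPR 4 was the highest library for 11 (23.9%, as for 23.9% of the 7124 genes with a mean of at least 3 CPM) and wt 4 for 7 (15.2%, against 13.8%). CRISPR 2 and CRISPR 3 were the highest for 8 each (17.4%, against 6.81% and 7.02%), CRISPR 1 for 5 (10.9%, against 22.3%) and wt 1 for 1 (2.17%, against 18.6%).

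The roX genes, left out above, are lncRNAs of the male X chromosome. roX1 ran from 100 CPM in CRISPR 2 to 1545 CPM in CRISPR 4, and roX2 from 2.57 CPM in CRISPR 2 to 70.9 CPM in wt 2, so CRISPR 2 was the lowest library for both.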
